A study of Homo sapiens with 5 samples.

Results

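This account covers 1 library of transfected human cells, the negative control, set against the 4 libraries of the same series that received a microRNA. For each gene the control's level was compared with the range spanned by the 4 microRNA libraries, and the genes described are those for which the control lay above the highest or below the lowest of them. Levels are TPM (each gene's length-scaled share of the library), and differences are of log2(TPM + 1). Of 57773 gene identifiers in the deposited table, 14177 averaged 1 TPM or more over the 5 libraries, and these were compared. The control lay outside the range for 6755 of them, above all 4 for 3756 and below all 4 for 2999, and inside it for the other 7422. The rule that chose these genes uses the same values that are described, so the counts and levels are a description and carry no test.

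All 5 libraries came from HCT116, a human colorectal carcinoma line, in a derivative that the series calls a Dicer knockout, and they differ in the oligonucleotide transfected. The microRNA libraries are let-7a in its native form and methylated (labelled 19A), and miR-17 in its native form and methylated (labelled 13A), with 1 library in each group. The labels do not name the control oligonucleotide, the kind of methyl group, the knockout clone or the time of harvest. The 4 microRNA libraries are 4 different treatments and not replicates, so their range is the only spread available, and with 1 control library no difference has a replicate check. A property of the control oligonucleotide, an effect shared by the 4 microRNAs and anything that set this 1 culture or library apart cannot be told apart. Values for the microRNA libraries are given below in a fixed order: native and then methylated let-7a, followed by native and then methylated miR-17.

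Dicer is the ribonuclease that cuts microRNA precursors into mature microRNAs, and cells without it are used to study microRNAs supplied from outside. A mature microRNA loads into an Argonaute protein and pairs through its seed, bases 2 to 8, with matching words in the 3′ untranslated region (3′ UTR) of target mRNAs, which are then destabilised. Negative-control oligonucleotides are chosen to have no intended target in the cell, and they too can load into Argonaute. let-7 is known as a repressor of growth and fetal genes, and miR-17 as the lead member of a cluster active in dividing cells.

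The sequences on which the results turn are shown first. The mature forms of both transfected microRNAs, from RefSeq on GRCh38.p14 with the seed in capitals, are shown because their seed matches were counted among the genes outside the range. let-7a-5p is encoded at 3 places, among them chr9:94175962-94175983 on the plus strand, and miR-17-5p at chr13:91350618-91350640 on the plus strand. The label numbers, read as positions from the 5′ end, fall on an adenine in each: base 19 of let-7a-5p and base 13 of miR-17-5p.
let-7a-5p: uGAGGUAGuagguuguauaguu
miR-17-5p: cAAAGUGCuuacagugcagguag

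Another word, GGTTGTG, was counted in the 3′ UTRs because it leads the genes that were lowest in the control, and the windows below are taken from those genes. Each shows the word in capitals with 10 bases on either side, in the sense of the transcript, from the longest 3′ UTR that GENCODE 29 annotates on GRCh38. The words lie at chr10:118682046-118682052 (minus strand) in CACUL1, chr14:60968626-60968632 (plus) in MNAT1, chr5:179728876-179728882 (plus) in CANX, chr11:78436516-78436522 (minus) in NARS2 and chr20:63890687-63890693 (plus) in TPD52L2. Those of the other genes lie at chr12:27756251-27756257 (plus) in MRPS35, chr3:150542829-150542835 (minus) in SERP1, chr4:138166291-138166297 (minus) in SLC7A11 and chr15:40473022-40473028 (plus) in CHST14.
CACUL1: ggacctttttGGTTGTGattactgttt
MNAT1: atgtgtttgaGGTTGTGacagacttat
CANX: ttaacataatGGTTGTGaaatgtaaca
NARS2: aaatataagtGGTTGTGattttcttag
TPD52L2: gttccttaatGGTTGTGagcattgtgt
MRPS35: ccacttcgatGGTTGTGattaatttaa
SERP1: tctgttttatGGTTGTGctaaattcat
SLC7A11: taatttgttgGGTTGTGagtggtctga
CHST14: aggcctttgaGGTTGTGactgtggctg
In 8 of these 9 genes the word is followed by an adenine, and in SERP1 by a cytosine.

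The libraries were alike in breadth, with 14173 to 14396 genes at 1 TPM or more. Mitochondrially encoded transcripts held 12.6% of the TPM in the control against 9.36% to 11.7% in the others, and cytosolic ribosomal protein genes held 14.2% against 15.7% to 17.6%. All 6 epithelial markers checked were present, with summed levels of 7170 to 8792 TPM and the control inside that range at 7290 TPM. Blood and endothelial markers summed to 8.8 to 11.0 TPM, with PTPRC and HBB listed at 0 in all 5 libraries, and mesenchymal markers to 14.9 to 22.4 TPM, lowest in the control and with THY1 listed at 0 throughout. DICER1 lay inside the range, at 15.4 TPM against 11.2 to 15.9. Its transcript was thus present in all 5 libraries, and whether the protein was made cannot be read from these levels. In bulk RNA, fewer cells in a given state and less RNA per cell cannot be told apart.

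The control lay above all 4 microRNA libraries for 26.5% of the genes compared and below all 4 for 21.2%. Most of these genes were only a little outside: the median gap to the nearest microRNA library was 0.11 on the log2 scale above and 0.13 below. The gap exceeded the range of the 4 microRNA libraries for 528 genes above (3.72%) and 670 below (4.73%). It reached 1.5-fold in TPM + 1 for 81 genes above (0.571%) and 146 below (1.03%), and 2-fold for 12 above (0.0846%) and 36 below (0.254%). Many of these low-level genes were listed at 0 somewhere: 9 of the 12 and 18 of the 36 were at 0 in at least 1 library. The counts of large gaps above depended on methylated let-7a, without which 170 genes were at least 1.5-fold and 45 at least 2-fold above; without native miR-17 they were 124 and 20, and without methylated miR-17 the 2-fold count was 21. Below, 233 genes were at least 1.5-fold lower without methylated let-7a. Leaving a library out narrows the range, so these counts could only rise or stay.

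**Figure D1:**
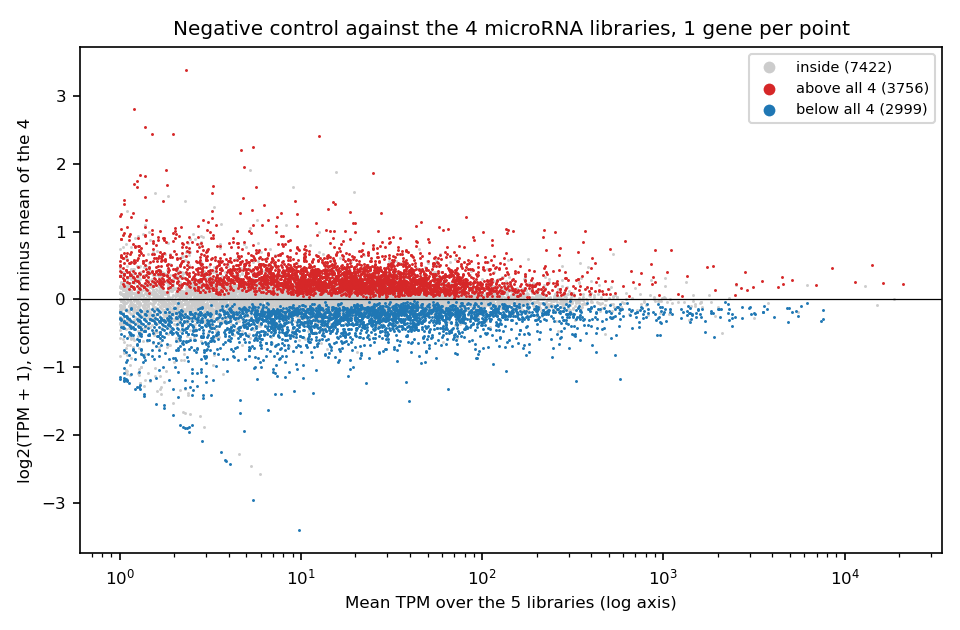
Difference of log2(TPM + 1), control minus the mean of the 4 microRNA libraries (y axis), against mean TPM over the 5 libraries (log x axis), 1 point per gene, coloured by whether the control lay above (3756 genes), below (2999) or inside (7422) the range. Most genes outside the range lie within 1 log2 unit of 0, and the widest differences are at low TPM.

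Genes at the edge of the range show how narrow the rule is. SSRP1, a histone chaperone subunit, was counted above at 181.7 TPM because the highest other library held 181.6, and RAB5C, an endosomal GTPase, at 159.8 against 159.7. AKAP11 at 20.3 TPM and BOD1 at 78.7 tied with the highest other library and were counted inside. Below, SF3B2, a splicing factor, was counted at 105.5 TPM against a lowest value of 105.6, while ACTR8 tied at 29.7 and was counted inside. Genes of high level were more often below than genes of low level: of 1420 genes averaging 100 TPM or more, 34.3% were below and 21.2% above, against 18.5% and 19.6% of those averaging 1 to 2 TPM.

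The methylated let-7a library lay nearest to the control for more genes than any other. Among genes above the range the nearest library was methylated let-7a for 38.8%, native let-7a for 27.7%, native miR-17 for 27.5% and methylated miR-17 for 5.91%. Among genes below, it was methylated let-7a for 49.4%, methylated miR-17 for 20%, native let-7a for 17.9% and native miR-17 for 12.6%. The genes inside the range were split more evenly, with 31.2% nearest to methylated let-7a and 29.6% to native let-7a.

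In several of the genes lowest in the control relative to the others, the 4 microRNA libraries were close together and the control stood alone. CACUL1, a cullin-domain protein that associates with CDK2, had 28.7 TPM in the control against 76.0, 75.9, 76.1 and 66.0. The 4 others spanned 0.20 on the log2 scale, while the control lay 1.17 below the lowest of them and 1.32 below their mean. MNAT1, the assembly factor of the CDK-activating kinase, had 10.4 TPM against 24.8, 24.2, 28.1 and 26.2, which put it 1.14 below the lowest. CANX, which encodes the endoplasmic reticulum chaperone calnexin, had 287.2 TPM against 631.3, 666.2, 698.1 and 602.4. The control lay 1.07 log2 units below the lowest of the CANX values and was far from overlapping them.

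Other genes of this set code for parts of protein synthesis, mitochondria and the secretory route. NARS2, the mitochondrial asparaginyl-tRNA synthetase, had 10.3 TPM in the control against 21.8, 20.2, 21.5 and 22.7. TPD52L2, a coiled-coil protein of vesicle traffic, had 65.2 TPM against 126.2, 127.4, 130.3 and 122.8, and its 4 microRNA libraries spanned only 0.08 log2 units. Both genes were 0.90 to 0.91 below the lowest of the others. MRPS35, a mitochondrial ribosomal protein, had 55.2 TPM against 94.9 to 105.1, and NDUFB5, a complex I subunit, 19.6 against 34.7 to 39.5. SERP1, a stress-associated protein of the endoplasmic reticulum, had 56.3 TPM against 96.2 to 109.2, and CHST14, a dermatan sulfotransferase, 10.7 against 18.6 to 23.6. In each of them the control was the single low library.

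Other low genes included a noncoding host gene and an interferon-induced one. SNHG6, a noncoding host of small nucleolar RNAs, had 161.7 TPM in the control against 367.1, 354.4, 388.0 and 385.0, a gap of 1.13. AC005256.1 had 15.3 TPM against 35.8 to 53.7, and MFSD3, a transporter-like protein, 26.2 against 46.0 to 54.9. IFITM1, an interferon-induced membrane protein, had 8.8 TPM against 20, 19, 18.5 and 25.2. Listed at 0 in the control alone were 35 genes, and the largest elsewhere were RP11-598P20.5, at 16.6, 8.8, 2.3 and 21.1 TPM, and MGC4771, at 10.3, 4.3, 3.9 and 1.8. An exact 0 in such a table can be a failed assignment of reads, so no fold is given for them. RP11-603J24.9 was the only gene listed at 0 in all 4 microRNA libraries and above 0 in the control, at 6.0 TPM. Such a gene reaches the required mean of 1 TPM only through the control, and it must be at 0 in 4 libraries. Its count therefore cannot be set against the 35.

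**Figure D2:**
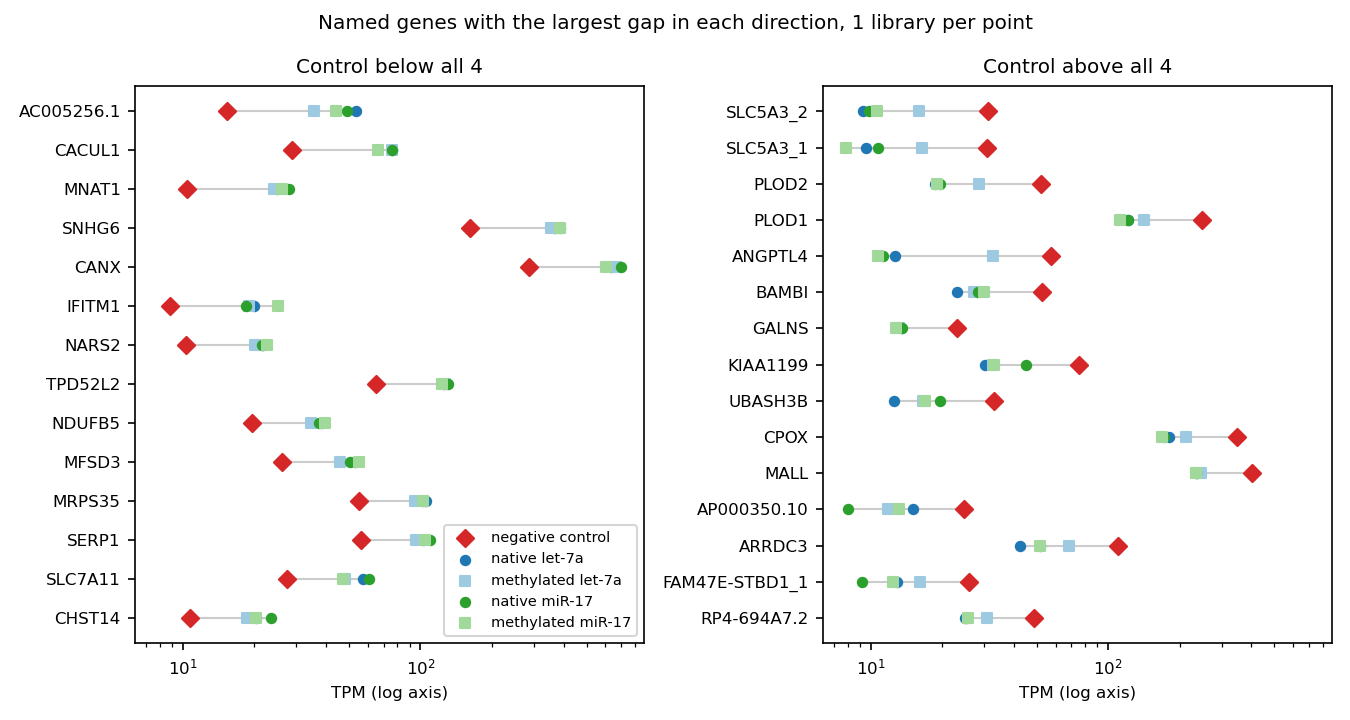
TPM (log x axis) of the named genes with the largest gap between the control and the nearest microRNA library in each direction, among genes above 0 in all 5 libraries and with at least 20 TPM in the highest. Each point is 1 library, the control is the red diamond, and it stands apart at the left for the genes below and at the right for the genes above.

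The word GGTTGTG was found in the 3′ UTRs of most of these lowest genes. Of the 15 genes with the largest gap below, 11 had a 3′ UTR of at least 50 bases that was searched, and 9 of them held the word, while IFITM1 and NDUFB5 did not. Taken over the 70 searched genes at least 1.5-fold below all 4, 29 (41.4%) held it, against 1264 of all 12019 genes searched (10.5%), 13.6% of all genes below and 8.22% of all genes above. Of the 42 searched genes at least 1.5-fold above, 3 (7.14%) held it. Followed by an adenine, the word was in 20 of the 70 low genes (28.6%), in 333 of all genes (2.77%) and in none of the 42 high genes. By the share in the 70 low genes minus the share in all genes it ranked first of all 16384 heptamers, and the next, GTTGTGA and TGGTTGT, overlap it. This word had already come up in an earlier look at these data, so its rank is a description.

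The 3′ UTRs of the low genes were short, so the word was also counted within 3 equal classes of short, middle and long 3′ UTRs. Median 3′ UTR length was 562 bases for the 70 low genes and 1357 for all genes searched. In the short class, 6 of 39 low genes (15.4%) held the word against 2.77% of all genes. In the middle class it was 15 of 21 (71.4%) against 7.57%, and in the long class 8 of 10 (80.0%) against 21.2%. In each length class the low genes held the word more often than all genes. The word had come up in these same data, so this too is a description, and the part of length was not tested. Of the genes at least 1.5-fold above, 0 of 13 in the short class held the word. In the middle class it was 2 of 14 (14.3%) and in the long class 1 of 15 (6.67%). Across all genes searched, the median difference of the control from the mean of the 4 was 0.03 for the 10755 genes without the word, 0.00 for the 1121 with 1 copy and -0.08 for the 143 with 2 or more. The control lay below all 4 for 20%, 26.0% and 32.9% of these genes, and for 34.5% of the 333 genes with the word followed by adenine. The 4 microRNA libraries did not shift alike. From no copy to 2 or more, the median minus the control went from 0.00 to 0.11 with native let-7a and from -0.05 to 0.12 with methylated let-7a. It went from 0.00 to 0.16 with native miR-17. With methylated miR-17 it was -0.07 without the word, -0.07 with 1 copy and -0.03 with 2 or more.

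The 29 low genes with the word held several roles. Their median range over the 4 microRNA libraries was 0.22 on the log2 scale, against 0.38 for the 41 low genes without it. The control's gap exceeded that range in 25 of the 29 and, much alike, in 35 of the 41. YWHAB, a 14-3-3 adaptor protein, had 147.4 TPM in the control against 263.6, 241.1, 292.2 and 266.0. YTHDF2, a reader of N6-methyladenosine that promotes mRNA decay, had 72.0 TPM against 121.5, 112.5, 119.2 and 115.8. Both were low in the control alone. PARN, a deadenylase, had 21.1 TPM against 32.2 to 37.1, and RCAN1, an inhibitor of calcineurin, 4.7 against 8.5 to 10.4. NSF, the ATPase that recycles SNARE complexes, had 44.7 TPM against 69.6 to 90.7, and ATAD1, a mitochondrial protein extractor, 30.8 against 49.8 to 55.9. HIPK1, a nuclear kinase, had 13.9 TPM against 22.9 to 28.3. These 7 genes were picked from the 29 after their values were seen. The control oligonucleotide's sequence is not in the labels, so whether its seed pairs with this word was not tested.

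**Figure D3:**
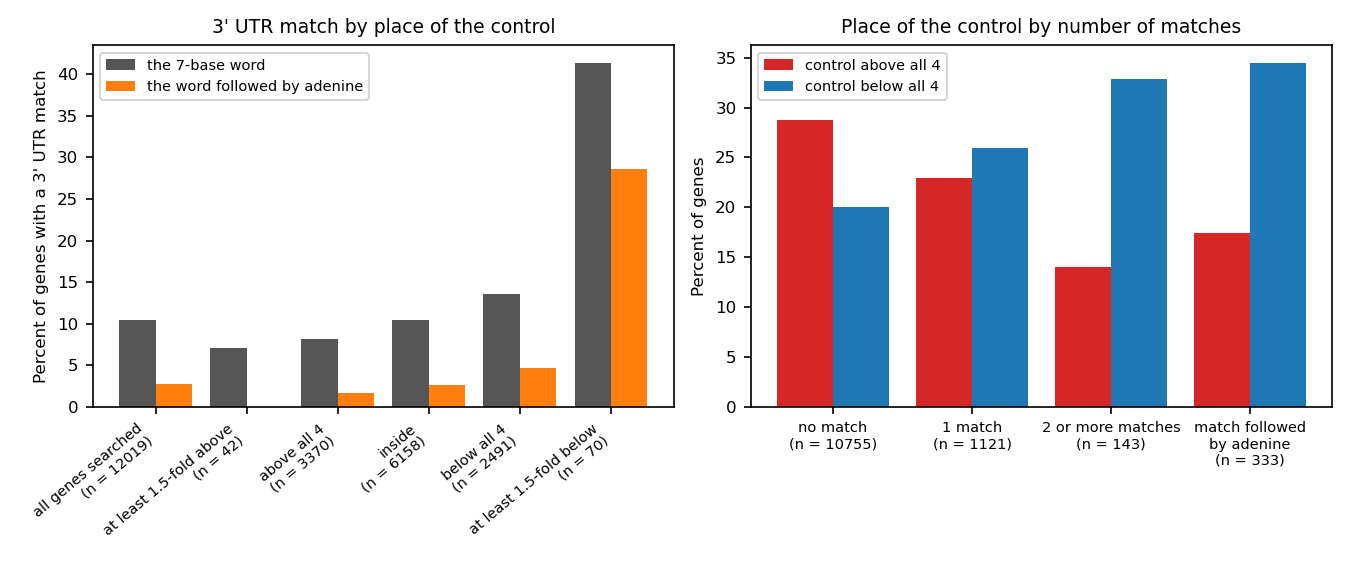
Left: percent of genes (bars, from 0) whose longest 3′ UTR holds the 7-base word, or the word followed by adenine, by the place of the control. Right: percent of genes with the control above or below all 4, by number of copies of the word. The word is in 41.4% of the genes at least 1.5-fold below against 10.5% of all genes, and the share of genes below grows from 20% without a copy to 32.9% with 2 or more.

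Matches to the transfected microRNAs were more frequent among genes above all 4 than among genes below. A let-7 match (CTACCTC, or TACCTCA) was in the 3′ UTR of 22.0% of the genes above all 4, 17.9% of all genes and 12.6% of the genes below. A miR-17 match (GCACTTT, or CACTTTA) was in 40.1%, 31.5% and 20.9% of them. In the 42 searched genes at least 1.5-fold above, the let-7 and miR-17 shares were 19% and 35.7%, near those of all genes, and in the 70 at least 1.5-fold below both were 11.4%. The 3′ UTRs of genes above were also longer, with a median of 1794 bases against 890 for genes below, and the part of length in these shares was not tested.

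Among known let-7 targets, 15 of 35 compared were above all 4 (42.9%, against 26.5% of all genes) and 4 below (11.4%, against 21.2%), with a median difference of 0.19 against 0.02 for all genes. HMGA2, an architectural chromatin protein of fetal tissue, had 56.0 TPM in the control against 23.9, 28.1, 36.5 and 31.0. It was lowest with native let-7a, yet both miR-17 libraries also lay well under the control. IRS2, an insulin receptor substrate, had 25.9 TPM against 13.8, 17.4, 14.5 and 12, and PBX3, a homeodomain cofactor, 9.0 against 4.7, 6.0, 4.8 and 4.7. In both, the let-7 and miR-17 libraries overlapped. PLAGL2, a zinc finger factor, had 26.5 TPM against 13.7 to 18.4, and IGF2BP2, an mRNA-binding protein, 150 against 91.9 to 125.9. Below the range, CPEB2, a regulator of polyadenylation, had 1.8 TPM against 2.1 to 3.1, and ONECUT2, a transcription factor, 3.1 against 3.8 to 4.9.

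Among known targets of the miR-17 family, 19 of 37 were above all 4 (51.4%, against 26.5% of all genes) and 1 below. Their median difference was 0.35. PFKP, the platelet form of phosphofructokinase, had 160.7 TPM in the control against 110.3, 126.4, 52.1 and 56.8. The miR-17 libraries were the low ones, and the let-7a libraries lay between them and the control. RBL2, a pocket protein of the retinoblastoma family, had 22.1 TPM against 19.6, 19.6, 11.6 and 11.8, and RAB5B, an endosomal GTPase, 146.4 against 135.6, 136.1, 73.8 and 65.4. For these the gap to the let-7a libraries was small, at 0.17 and 0.10. SMAD7, the inhibitor of TGF-beta signalling, was different, with 14.2 TPM against 5.4, 7.6, 11.3 and 8.8, so that its lowest values were in the let-7a libraries.

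The silencing machinery itself was mostly inside or a little above. Of 22 genes, 10 were above all 4 (45.5%, against 26.5% of all genes) and 1 below. AGO2, the Argonaute with slicer activity, had 58.3 TPM in the control against 54.1, 55.2, 34.5 and 27.1, and AGO1 28.2 against 24.1, 24.6, 22.9 and 17.3. The control was only a little over the let-7a libraries for AGO2, by 0.08. PAN2, the catalytic subunit of a deadenylase, was the member below, at 8.0 TPM against 12.3, 10.1, 13.1 and 12, while its partner PAN3 was above, at 24.2 against 16.3 to 22.4.

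Hypoxia effectors formed the list with the largest median difference above. These genes are switched on by hypoxia-inducible factors when oxygen is low and cover vessel growth, pH control, collagen maturation and mitophagy. Of 28 compared, 26 were above all 4 (92.9%, against 26.5% of all genes) and none below, with a median difference of 0.60. ANGPTL4, a secreted inhibitor of lipoprotein lipase, had 57.5 TPM in the control against 12.7, 32.8, 11.3 and 10.7. Its level with methylated let-7a was between the control and the other 3, and the control lay 1.86 above the mean of the 4. CA9, a carbonic anhydrase of the cell surface, had 3.7 TPM against 0.6, 2.2, 0.2 and 0.2, and NDRG1, a stress-induced differentiation protein, 222.6 against 118.8, 165.0, 77.9 and 89.3. The same order, with methylated let-7a next to the control, was seen in both. Methylated let-7a was the nearest library for 24 of the 26 members above, against 38.8% of all genes above.

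Other members with wide gaps included enzymes that act on collagen, described here with PLOD1, which is on no list, because it is among the 15 genes with the largest gap above. PLOD2, a lysyl hydroxylase, had 52.2 TPM in the control against 18.6, 28.5, 19.6 and 19, and its relative PLOD1 had 248.8 against 121.2, 141.6, 120.6 and 112.1. Neither overlapped, and the gaps to the nearest library were 0.85 and 0.81. LOXL2, a lysyl oxidase, had 81.3 TPM against 35.9, 52.9, 31.8 and 29, and P4HA1, a prolyl hydroxylase subunit, 138.2 against 75.2, 118.2, 55.6 and 56.4. ERO1L, the oxidase that supplies disulfide bonds, had 67.9 TPM against 32.4 to 45.3. BNIP3, a mitophagy receptor, had 101.8 TPM against 45.7, 70.5, 40.6 and 46.0, and ADM, the vasodilator peptide adrenomedullin, 140.9 against 61.8, 99.1, 75.2 and 73.5. VEGFA, the vascular growth factor, was nearer to the rest, at 32.6 TPM against 27.2, 28.7, 20.6 and 18.0. ANKRD37, at 10.4 TPM against 5.8 to 13.8, and CA12, at 1.2 against 0.7 to 1.2, were the members inside the range.

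Glucose uptake and glycolysis followed the same pattern from transporter to lactate. Of 28 genes, 25 were above all 4 (89.3%, against 26.5% of all genes) and 2 below, with a median difference of 0.46. SLC2A1, the glucose transporter GLUT1, had 608.6 TPM in the control against 235.7, 406.1, 300.5 and 286.8, and SLC2A3, or GLUT3, 21.6 against 5.8, 13.5, 9.7 and 10.1. HK2, the first enzyme of the route, had 79.5 TPM against 38.5, 59.3, 37.6 and 37.1. All these genes were highest in the control and next highest with methylated let-7a. ALDOC, an aldolase, had 413.3 TPM against 222.3, 284.7, 152.9 and 193.6, and LDHA, which makes lactate, 934.9 against 530.0, 748.6, 391.6 and 456.5. GAPDH, often used as a reference gene, had 10952 TPM against 7820, 9063, 6953 and 8029. PDK1, which shuts pyruvate out of the mitochondrion, had 4.4 TPM against 1.7 to 2.9. The members below were PFKL, the liver phosphofructokinase, at 30.8 TPM against 34.3 to 38.0, and SLC16A1, a lactate transporter, at 47.4 against 54.1 to 63.9. LDHB, at 1185 TPM against 1120 to 1266, was the member inside.

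Promoters of these genes were searched for the core of the hypoxia response element, since the members lay on the same side together. The window was 250 bases before to 50 after each RefSeq gene start on GRCh38.p14, and the word was ACGTG on either strand, which reads CACGT on the opposite one. It was in at least 1 promoter of 15 of the 20 hypoxia effectors above that had a RefSeq entry (75.0%) and 17 of 24 glycolysis genes above (70.8%). Genes can have several promoters in the table, and counted by promoter the shares were 66.7% of 24 and 40.4% of 52, against 25.4% of the 15214 promoters of compared genes. Of all 10491 compared genes with an entry, 32.2% held it in at least 1 promoter, as did 32.8% of the genes above and 32.1% of the genes below. The share in the whole set above was thus near that of all genes. Hypoxia effectors are listed as targets of hypoxia-inducible factors, so their share describes the list and not the level in the control. Windows from 6 members are shown with the word in capitals. They start 12 bases before it, in the sense of the gene, at chr19:8363921-8363925 (ANGPTL4), chr9:35673910-35673914 (CA9), chr3:146161326-146161330 (PLOD2, minus strand), chr10:131982053-131982057 (BNIP3, minus strand), chr11:18394378-18394382 (LDHA) and chr2:74834976-74834980 (HK2).
ANGPTL4: ggaaagaagagtCACGTctcccacggttc
CA9: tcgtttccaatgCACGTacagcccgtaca
PLOD2: caaacagtccagACGTGgggcccaggagg
BNIP3: gcgcacgcgccgCACGTgccacacgcacc
LDHA: agactcccagcgCACGTggagcagtctgc
HK2: gattgctgcgccCACGTgggagggagccc

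The ATF4 amino acid response lay on the opposite side. ATF4 is the transcription factor of the integrated stress response, and its targets import amino acids, make serine, proline and asparagine and balance redox. Of 33 genes compared, 26 were below all 4 (78.8%, against 21.2% of all genes) and none above, with a median difference of -0.36. ASNS, asparagine synthetase, had 194.9 TPM in the control against 320.1, 234.9, 386.8 and 369.9, and CHAC1, a glutathione-degrading enzyme, 59.6 against 104.2, 63.9, 133.0 and 119.2. Methylated let-7a was again the library closest to the control. It was nearest for 20 of the 26 members below, against 49.4% of all genes below. SLC7A11, the cystine transporter, had 27.5 TPM against 57.5, 48.3, 60.6 and 47.1, a gap of 0.76, and its partner SLC3A2 had 241.9 against 378.3, 325.3, 351.8 and 333.6. SLC7A11 is also among the genes that hold GGTTGTG, as are ATF3, JDP2 and MTHFD2, and these 4 of the 26 low members are a share near the 13.6% of all genes below.

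**Figure D4:**
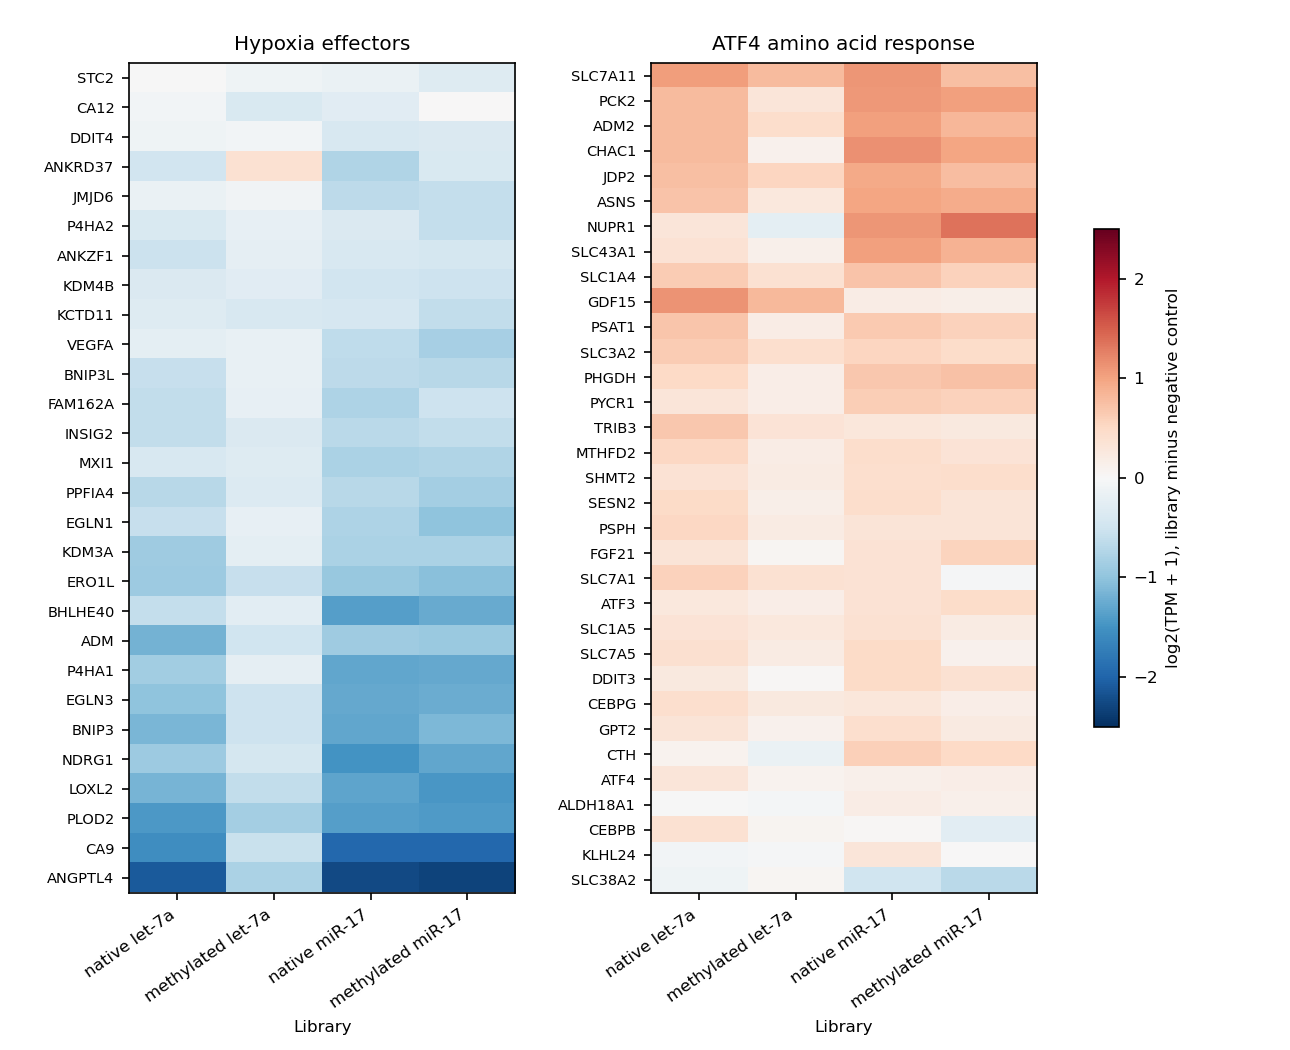
Difference of log2(TPM + 1), each microRNA library minus the control (colour), for the 28 hypoxia effectors and the 33 ATF4 response genes compared, 1 row per gene. Blue is lower and red higher than in the control. The methylated let-7a column is the palest for most rows of both lists, and it is nearest to the control for 24 of 26 hypoxia effectors and 20 of 26 ATF4 genes outside the range. Among all genes it is nearest for 38.8% of those above and 49.4% of those below.

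Further members of the ATF4 list are given by role, starting with serine and one-carbon metabolism, a grouping made after the values were seen. PHGDH, which starts serine synthesis, had 231.4 TPM in the control against 326.6, 259.0, 371.7 and 383.5, PSAT1, the next enzyme, 400.9 against 647.5, 453.0, 631.2 and 597.4, and PSPH, the last, 81.3 against 94.1 to 117.5. SHMT2 and MTHFD2, mitochondrial one-carbon enzymes, had 243.9 TPM against 282.6 to 330.8 and 293.7 against 333.3 to 421.2. All 5 were below every microRNA library, PHGDH and PSAT1 by 0.52 from the mean of the 4 and PSPH, SHMT2 and MTHFD2 by 0.35 to 0.37. PCK2, mitochondrial PEP carboxykinase, had 58.2 TPM against 101.9, 72.2, 124.6 and 119.1, JDP2, a bZIP repressor, 11.9 against 17.8 to 23.9, and ADM2, a peptide hormone, 16.7 against 22.9 to 35.2. ATF4 itself had 1226 TPM against 1311 to 1503, and DDIT3, the stress factor CHOP, 135.3 against 138.5 to 189.6. The gap of DDIT3 was only 0.03. GDF15, a secreted stress cytokine, had 357.9 TPM against 778.5, 625.0, 406.6 and 395.8, so that its difference was wide against let-7a and narrow against miR-17. SLC38A2, an amino acid transporter, was the member whose control level exceeded the mean of the 4, at 1189 TPM against 739.7 to 1221, and it lay inside the range.

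Cytosolic tRNA synthetases, many of which ATF4 also drives, lay below in 14 of 20 cases (70.0%, against 21.2% of all genes) and above in 2. Their median difference was -0.25. CARS, for cysteine, had 45.1 TPM in the control against 70.4, 58.7, 73.5 and 70.7, and NARS, for asparagine, 125.6 against 187.1, 161.2, 189.7 and 183.2. EPRS, for glutamate and proline, had 137.2 TPM against 173.5 to 205.4, and WARS, for tryptophan, 83.5 against 98.4 to 151.6. The control was the low library in each. DARS, for aspartate, at 130.9 TPM against 103.0 to 112.7, and HARS, for histidine, at 43.4 against 31.5 to 40.8, were the members above.

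The ATF4 composite element was searched in the same promoter windows as TGATG followed by any base and AA, on either strand. At least 1 promoter held it in 9 of the 21 low ATF4 genes with a RefSeq entry (42.9%). The same was true of 6 of 11 low tRNA synthetase genes (54.5%). Both counts include elements up to 50 bases after the start. The ATF4 list is made of known ATF4 targets, so its share describes the list and not the level in the control. Of all 10491 genes, 2.63% held the element, as did 3.48% of the genes below and 2.12% of the genes above. The windows below show it in capitals, at chr7:97872469-97872476 (ASNS, minus strand), chr15:40953262-40953269 (CHAC1), chr19:33374071-33374078 (CEBPG) and chr14:75428006-75428013 (JDP2).
ASNS: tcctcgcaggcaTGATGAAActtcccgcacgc
CHAC1: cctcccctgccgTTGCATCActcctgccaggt
CEBPG: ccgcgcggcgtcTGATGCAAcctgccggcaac
JDP2: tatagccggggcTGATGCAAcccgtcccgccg

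Chaperones and unfolded protein response genes of the endoplasmic reticulum were split. Of 30, 12 were below all 4 (40%, against 21.2% of all genes), 2 above and 16 inside, with a median difference of -0.10. Without methylated miR-17 the number below was 20. CANX, described above, held the widest gap of the list. MANF, a secreted stress factor, had 146.1 TPM in the control against 229.7, 200.2, 225.1 and 227.3, and CRELD2, another secreted resident, 27.0 against 38.1 to 44.6. HSPA5, the chaperone BiP, had 999.1 TPM against 968.8 to 1188 and CALR, calnexin's soluble relative, 1581 against 1491 to 1711, both inside. CANX and ATF6 were the members below whose 3′ UTR holds GGTTGTG, and 2 of 12 is a share near that of all genes below.

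Interferon-stimulated genes lay below or inside, never above. Of 36 compared, 17 were below all 4 (47.2%, against 21.2% of all genes), with a median difference of -0.18. IFITM1 held the widest gap. IFI6, a mitochondrial antiviral protein, had 61.5 TPM in the control against 98.3, 92.0, 93.8 and 91.9, IFIT1, which binds foreign RNA ends, 12.9 against 20.6, 18.5, 23.8 and 24.1, and IFIT3, its partner, 5.1 against 8.4, 7.4, 14.9 and 15.3. IFIT3 was lower in the let-7a than in the miR-17 libraries, while IFI6 was alike in all 4. ISG15, a ubiquitin-like modifier, had 243.8 TPM against 289.5 to 326.0, and B2M, the light chain of class I antigen presentation, 379.2 against 439.0 to 503.0. IFITM and HLA genes have near-identical relatives, and how reads were split among them is not known.

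Cytosolic ribosomal protein genes were below in nearly every case. Of 79, 76 were below all 4 (96.2%, against 21.2% of all genes) and none above, but the differences were small, with a median of -0.19. RPL18 had 711.1 TPM in the control against 963.7, 986.0, 999.2 and 1151, and RPS3 1166 against 1407, 1409, 1440 and 1620. RPL4, at 2310 TPM against 2218 to 2413, was 1 of the 3 inside. The terminal oligopyrimidine start, a C at the RefSeq start followed by 4 more pyrimidines, is a known mark of these mRNAs. It was at the start of 45 of the 60 low genes with an entry (75.0%), against 7.41% of all 10491 genes and 9.41% of those below. Nearly all genes of the list were below, so this share describes the list and not the level in the control. The windows show those 5 bases in capitals with 12 bases on either side, at chr19:48619174-48619178 (RPL18, minus strand) and chr11:75399518-75399522 (RPS3).
RPL18: ccagcccgttctCTCTTtccggacctggc
RPS3: cgcgagccacttCCTTTcctttcagcgga

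Respiration showed opposite sides for its nuclear and mitochondrial genes. Nuclear-encoded subunits of the respiratory chain were below all 4 for 53 of 78 entries (67.9%, against 21.2% of all genes) and above for none. Their median difference was -0.19. NDUFA10, of complex I, had 23.2 TPM in the control against 40.3, 34.6, 36.8 and 38.3, ATP5I, of ATP synthase, 180.1 against 265.3, 267.9, 299.3 and 307.6, and COX4I1, of cytochrome oxidase, 355.1 against 475.2, 456.3, 482.9 and 519.6. Methylated let-7a was nearest for 41 of the 53, against 49.4% of all genes below. By contrast, mRNAs made in the mitochondrion were above all 4 for 11 of 13 (84.6%, against 26.5% of all genes). Their median difference was 0.23. MT-CO1, a cytochrome oxidase subunit, had 18548 TPM in the control against 12059, 14696, 13947 and 11781, and MT-ND5, of complex I, 2435 against 1673, 2047, 1844 and 1441. The control held the highest share of mitochondrial transcripts of all 5 libraries, and what part that share has in these differences was not tested.

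Length moved with direction across the genome. The longest annotated transcript had a median of 4451 bases for genes above all 4, 3611 for genes inside and 2730 for genes below. Long-transcript chromatin regulators lay above in 17 of 28 cases (60.7%, against 26.5% of all genes) and below in 1. KDM6A, a histone demethylase, had 14.8 TPM in the control against 9.3 to 11.7, and ARID2, a chromatin remodelling subunit, 22.1 against 14.8 to 19.4. Low ribosomal protein and low respiratory chain genes had median longest transcripts of 1857 and 1377 bases, while the high hypoxia effectors had 3472 and the low ATF4 genes 2552. The part of transcript length in the list differences was not tested. Protein-coding genes were above in 27.8% and below in 20.8% of cases, lincRNAs in 13.6% and 30.1%, and antisense genes in 17.2% and 28.0%.

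Among host genes of small nucleolar RNAs and microRNAs, 10 of 21 were below all 4 (47.6%, against 21.2% of all genes), 3 above and 8 inside. Next to SNHG6, GAS5 had 238.0 TPM in the control against 310.2, 329.5, 349.6 and 384.3, SNHG8 133.6 against 165.5 to 218.0 and ZFAS1 657.9 against 742.7 to 861.4. MIR210HG, host of a hypoxia-induced microRNA, was above, at 7.3 TPM against 3.9, 6.0, 3.2 and 3.2. The control and methylated let-7a were the high libraries for MIR210HG, as for the hypoxia effectors.

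The TGF-beta list holds response genes and parts of the pathway itself, such as TGFB1, TGFBR2 and SMAD3. Its members were above all 4 in 12 of 18 cases (66.7%, against 26.5% of all genes) and below in none. Their median difference was 0.27. BAMBI, a decoy receptor, had 52.4 TPM in the control against 23.2, 27.2, 28.3 and 30.1, a gap of 0.78. The 4 microRNA libraries were close for BAMBI, and the control alone was high. ID3, a target of BMP signals, had 307.8 TPM against 199.8 to 269.3. Wnt feedback and colon stem genes were above in 10 of 16 (62.5%, against 26.5% of all genes) and below in 1. EPHB2, a crypt receptor, had 18.4 TPM against 10.7 to 13.7, and NOTUM, a secreted Wnt inhibitor, 35.6 against 21.9 to 28.1, while SP5, a Wnt-induced repressor, was the member below, at 4.0 against 5.1 to 7.6.

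The list of MAPK signalling feedback holds ligands, receptors and ETS factors beside feedback inhibitors. Of its genes, 11 of 23 were above all 4 (47.8%, against 26.5% of all genes) and 1 below. SPRY1, an inhibitor of receptor signalling, had 13.2 TPM in the control against 3.5, 5.5, 5.1 and 3.8, and the control lay 1.13 above the highest. DUSP4, a MAPK phosphatase, had 142.9 TPM against 80.2 to 116.1, and SPRY2 21.1 against 14.4 to 17.6. ETV5, an ETS factor, was below, at 88.5 TPM against 89.3 to 119.5. Of immediate early genes, 12 of 27 were above (44.4%, against 26.5% of all genes) and 3 below. FOSL2, an AP-1 subunit, had 23.5 TPM against 9.6, 15, 11.8 and 8.7, and EGR1, a growth-induced zinc finger factor, 111.9 against 77.3, 69.1, 56.8 and 56.6. JUND, another AP-1 subunit, lay on the other side, at 184.7 TPM against 231.5 to 267.6.

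Among the 15 genes with the largest gap above, several belong to no list. SLC5A3, the myo-inositol transporter, has 2 entries in the table, with 31.2 TPM in the control against 9.3, 16.0, 9.8 and 10.6 and with 31.0 against 9.6, 16.4, 10.7 and 7.9; how reads were split between these entries is not known. MALL, a raft-associated membrane protein, had 400.5 TPM against 236.1, 245.9, 235.0 and 232.8. GALNS, a lysosomal sulfatase, had 23.2 TPM against 13.4, 13.1, 13.5 and 12.8. In MALL and GALNS the 4 microRNA libraries were almost level and the control alone was high. CPOX, a heme synthesis enzyme, had 346.6 TPM against 168.8 to 212.6, KIAA1199, a hyaluronan-degrading protein, 75.3 against 30.3 to 44.9, and UBASH3B, a tyrosine phosphatase, 33.2 against 12.6 to 19.6. ARRDC3, an arrestin-domain adaptor protein, had 109.6 TPM against 42.7, 68.5, 51.6 and 51.4. The other 3 were AP000350.10, FAM47E-STBD1_1 and RP4-694A7.2, with 24.7, 26.0 and 48.8 TPM in the control, and the FAM47E-STBD1_1 entry is a readthrough transcript of neighbouring genes.

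Most proliferation genes lay inside the range, and the lists leaned to different sides of the mean of the microRNA libraries. The control was higher than that mean for 7650 of all 14177 genes compared and lower for 6527. For G2/M and mitosis genes it was higher for 32 and lower for 10. Their median difference was 0.11, against 0.02 for all genes. For G1/S and replication genes the control was lower than the mean for 28 and higher for 14, with a median difference of -0.13. Of 42 G2/M and mitosis genes, 41 were inside the range (against 7422 of all 14177 genes), none was above and 1 was below. The member below was KIF4A, a chromosome kinesin, at 22.2 TPM against 37.6, 33.7, 27.7 and 29.6. KIF4A also holds GGTTGTG in its 3′ UTR. The list had 2 members below without methylated let-7a, without native miR-17 or without methylated miR-17. Of 42 G1/S and replication genes, 12 were below (28.6%, against 21.2% of all genes) and 7 above (16.7%, against 26.5%), and without methylated let-7a 19 were below. RFC4, a clamp loader subunit, had 12.1 TPM against 17.1 to 22.8 and TYMS, thymidylate synthase, 70.9 against 79.0 to 93.7, while CCNE2, a G1/S cyclin, was above, at 4.7 against 2.1 to 2.9.

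**Figure D5:**
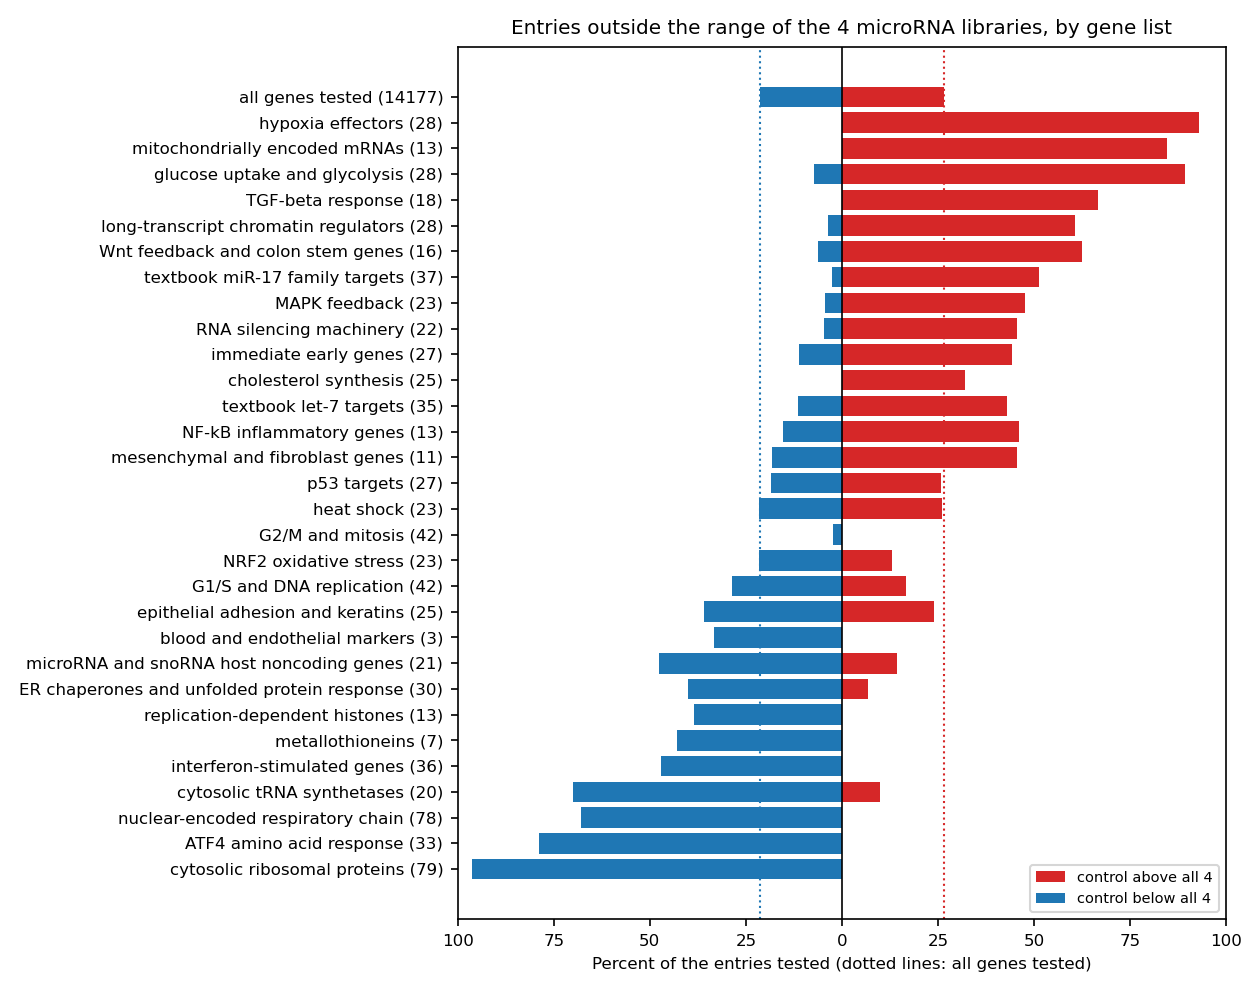
Percent of the entries compared in each gene list (number in brackets) with the control above all 4 microRNA libraries (red, right) or below all 4 (blue, left), with all genes on the top row and as dotted lines. Hypoxia effectors (92.9% above) and ribosomal proteins (96.2% below) are at opposite ends, and G2/M genes are nearly all inside.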

How the data were processed

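Total RNA, in ribosomal RNA-depleted stranded libraries per the labels' protocols, was measured in 5 samples, 1 per group. In the table the authors deposited, values are TPM per gene, rounded to 1 decimal. The genome build was hg19, per the submitters' processing notes. For aligner, counter and annotation, none is given in the sources used here. Every TPM column has the same total, so depth is unknown and no interval or floor is given. From the deposited TPM, differences of log2(TPM + 1) were computed in Python 3.11.15 with pandas 2.3.3 for 14177 genes averaging 1 TPM or more, control minus the mean of the 4 microRNA libraries, and minus the nearest of them. A pseudocount of 1 understates differences of low genes. With 1 library per group no test was run. The calculation was tested on simulated data.

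Named genes are the 15 with the largest gap in each direction, among genes above 0 in all libraries and with at least 20 TPM in the highest, up to 6 members per list with the largest gap on its main side and 2 on the other, genes at the edges of the range, genes listed at 0, and DICER1. Some further members are named to complete a pathway or a contrast, and these were chosen after their values were seen. Some named genes are not reported here. The comparison and the 30 gene lists were chosen with earlier results of these data known, and the 1.5-fold rule was added after the data were seen. Gene identifiers were matched to GENCODE 29 (97.6% of the genes compared), whose build differs from hg19 and which gave 3′ UTRs, coordinates and lengths; promoters and microRNAs came from RefSeq. Matches are counts of words, without regard to pairing or conservation. The alternatives tried were 2 pseudocounts, no filter, a mean of at least 5 TPM, 2 scalings, the median of the 4 libraries, and leaving out each microRNA library.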

Additional observations from a re-analysis of the deposited data

How the results depend on the processing

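The counts of genes with the control above or below all 4 were 5110 and 3566 without a filter, 3054 and 2364 at a mean of at least 5 TPM, 3943 and 3176 after scaling without mitochondrial and ribosomal protein genes, and 3591 and 3510 after median centring. Leaving out 1 microRNA library gave 3932 to 4550 above and 3236 to 4003 below. Leaving a library out narrows the range, so such counts can only rise or stay. The 2-fold counts depended on the pseudocount and filter: above and below they were 21 and 92 with a pseudocount of 0.1, 3 and 5 with 5, and 3 and 10 at a mean of at least 5 TPM, and 57 genes were above without a filter. Leaving out 1 library gave 17 to 45 genes at least 2-fold above. List counts stayed within 1.5 times in 290 of 299 recalculations. A list median changed sign 7 times. The main median was 0.1044 for blood and endothelial markers, of which 3 genes were compared, and 0.0181 for heat shock genes. For p53 targets, NRF2 genes and epithelial genes it was -0.0066, -0.0474 and 0.0612. Blood and endothelial markers had a median of -0.0344 without a filter and heat shock genes -0.0015 after median centring. Leaving out 1 library gave medians of -0.0868 to 0.247 for blood and endothelial markers, -0.0507 to 0.043 for p53 targets, -0.0303 to 0.0148 for NRF2 genes and -0.0578 to 0.094 for epithelial genes. The differences of the 30 genes with the largest gaps kept their sign in all 330 recalculations. These genes were chosen for the widest gaps, so a change of sign was hardly possible and this is no check of their differences. No paired analysis was possible because each group holds 1 library. The control library cannot be left out, so every count rests on it. The cause of these shifts was not tested.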

Other observations

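Gene groups outside the main account are given here beside the shares of all genes, 26.5% above and 21.2% below. Sterol synthesis genes were above all 4 in 8 of 25 cases (32.0%, near the share of all genes) and below in none, with a median difference of 0.22, and 13 were above without native let-7a. HMGCS1, an early enzyme of the route, had 208.2 TPM in the control against 178.0 and 182.7 with native and methylated let-7a and 118.0 and 125.9 with native and methylated miR-17, so the control was nearer to the let-7a libraries. SQLE, a later oxygenase, followed the same order, at 51.4 TPM against 41.9, 46.4, 29.9 and 28.3. Heat shock genes were split, with 6 of 23 above and 5 below. HSPA1A, an inducible chaperone with a near-identical copy, had 29.5 TPM against 12.6 to 19.1, while HSPD1, the mitochondrial chaperonin, was below, at 526.3 against 649.7 to 803.5. Inflammatory genes of NF-kB were above in 6 of 13 cases and below in 2, and NFKBIA, its inhibitor, had 109.4 TPM against 74.5 to 84.9.

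Of 7 genes of the metallothionein group, which holds these zinc- and copper-binding proteins and other zinc-related genes, 3 were below all 4 and 4 inside. MT1E had 1357 TPM in the control against 2609, 2365, 1408 and 1786, and MT1X 235.9 against 432.2, 392.8, 244.1 and 329.0. MT2A, inside the range, had 1527 TPM against 2819, 2757, 1430 and 1954, and MT1F, also inside, 26.6 against 41.3, 26.5, 26.9 and 39.4. The nearest library to the 3 members below was native or methylated miR-17, and metallothionein genes have near-identical relatives. Of p53 targets, 7 of 27 were above and 5 below, and of NRF2 targets 3 of 23 were above and 5 below, including FTH1, the ferritin heavy chain, at 4021 TPM against 4963 to 5359. Replication-dependent histones, most of which lack a poly(A) tail, were below in 5 of 13 cases and above in none. With a mean of at least 5 TPM required, 2 were below, and 3 of the 5 had 0.0 to 1.2 TPM in the control.

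Epithelial and mesenchymal genes did not fall on 1 side. Of 25 epithelial adhesion and keratin genes, 6 were above and 9 below: DSC2, a desmosomal cadherin, had 63.2 TPM in the control against 41.5 to 50.8, and CLDN7, a tight junction protein, 272.5 against 314.9 to 335.2. Of 11 mesenchymal genes, 5 were above and 2 below. COL6A2, a collagen chain, had 129.1 TPM against 91.0 to 104.7, and COL1A1, another, 10.8 against 14.1 to 16.3. Of 3 blood and endothelial genes compared, 1 was below.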
